A study of Mus musculus with 2 samples.

Results

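Microglia and brain macrophages were a small population of the embryonic dorsal telencephalon, with 189 cells among 16348 cells that passed the quality filters. Cells were kept when they held 1500 to 60000 unique molecular identifiers (UMIs, each marking 1 captured mRNA molecule) and under 10% of UMIs from mitochondrial genes. A kept cell was counted as a member when at least 4 of the 8 marker genes C1qa, C1qb, C1qc, Csf1r, Cx3cr1, P2ry12, Tyrobp and Fcer1g had a UMI and the erythroid gene Alas2 had none. No doublets were removed. All other kept cells, 16159 in number, served as the comparison.

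The data came from droplet-based single-cell RNA-seq (10x Genomics 3' chemistry) of papain-dissociated dorsal telencephalon from mouse embryos at embryonic day 16.5. Both libraries carried the genotype label WT in a series that crosses Emx1-Cre with a conditional Dot1l allele, in which Emx1-Cre drives recombination in the cortical progenitor lineage. Which Emx1-Cre or Dot1l alleles these WT embryos carried was not given in the sources used here, and knockout embryos were not analysed here. The libraries, named WT replicate 1 and WT replicate 6 after the labels, formed 1 group of 2 samples, so that every comparison below is between cells within the same libraries. They held 14136 and 13046 called cells with 74930397 and 68964234 UMIs. The libraries shared 59 cell barcodes, and 1 member carried a shared barcode.

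Microglia are the resident immune cells of the brain parenchyma. They descend from yolk sac progenitors, enter the brain early in development, depend on signalling through the receptor encoded by Csf1r and acquire their identity under the influence of transforming growth factor beta. They survey tissue with purinergic receptors such as P2ry12, take up dying cells and synaptic material, and are a main source of the complement component C1q. Border-associated macrophages share that early origin but live in the meninges, the choroid plexus and the perivascular space, and are marked by genes such as Mrc1, Lyve1 and Pf4. The transcription factor PU.1, encoded by Spi1, is required in both.

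The sequences just upstream of genes that separate these cells from their neighbours are shown here with the core of the PU.1 site, GAGGAAG, searched on both strands and marked in capitals. C1qb and C1qc are shown because they chose the cells, Trem2 as a microglia gene and Mrc1 as a macrophage gene. Trem2 and Mrc1 were picked for display after their values were seen. Sequences are from RefSeq (GRCm38.p6, which is the mm10 build named in the submitters' processing notes), run 5' to 3' along the gene's strand, and hold no base that an annotated transcript covers. C1qa is named only.
C1qb, chr4:136886201-136886450, minus strand: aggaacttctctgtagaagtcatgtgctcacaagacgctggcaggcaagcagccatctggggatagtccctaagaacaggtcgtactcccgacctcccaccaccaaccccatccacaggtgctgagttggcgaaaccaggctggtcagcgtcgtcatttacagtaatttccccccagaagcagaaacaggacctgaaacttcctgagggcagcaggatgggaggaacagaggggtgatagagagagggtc
C1qc, chr4:136893066-136893164, minus strand: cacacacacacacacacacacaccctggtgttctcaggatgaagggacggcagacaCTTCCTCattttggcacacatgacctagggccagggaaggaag
Trem2, chr17:48346151-48346400, plus strand: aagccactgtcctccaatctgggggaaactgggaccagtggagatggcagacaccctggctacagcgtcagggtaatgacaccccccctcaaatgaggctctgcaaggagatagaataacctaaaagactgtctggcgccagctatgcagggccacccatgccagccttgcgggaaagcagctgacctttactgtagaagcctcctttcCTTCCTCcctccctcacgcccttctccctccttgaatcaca
Mrc1, chr2:14229164-14229339, plus strand: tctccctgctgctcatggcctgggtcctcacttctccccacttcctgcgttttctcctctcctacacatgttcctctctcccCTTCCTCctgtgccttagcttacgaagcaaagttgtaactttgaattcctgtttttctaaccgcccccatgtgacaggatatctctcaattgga

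Capitals read CTTCCTC because the core lay on the opposite strand in each case. It stood 194 to 188 bases before the start of C1qc, 41 to 35 bases before that of Trem2 and 168 to 162 bases before that of Mrc1. A further match lay 36 to 30 bases before the start of Mrc1, within the 250 bases searched but outside the printed stretch, which is shorter for C1qc and Mrc1. No match was found within the 250 bases before C1qb. Siglech and Pf4 were searched as well and are not printed. Siglech had no match, and Pf4 had a match 9 to 3 bases before its start. Among 32851 promoters of the same length in the table, 10.6% held the core on either strand, as did 12% of the 27025 genes with a promoter there. It was present in 3 of the 12 microglia-list genes with a promoter in the table and in 4 of the 9 macrophage-list genes. Such a match is a run of letters and not a measured binding site.

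WT replicate 1 held 93 member cells, and WT replicate 6 held 96. Members made up 1.14% of the kept cells in replicate 1 (95% Wilson interval 0.934 to 1.40%) and 1.17% in replicate 6 (0.959 to 1.43%), intervals that cover counting error only. The 2 shares differed by less than their counting error. Members held 1.35% and 1.23% of the UMIs of all kept cells. Their median depth of 8331 and 7022.5 UMIs was close to that of the other cells, at 6913 and 6660 UMIs, and the median number of detected genes was 3012 and 2764 against 2817 and 2766. Median mitochondrial shares were 3.60% and 3.73% in members and 3.60% and 3.70% in other cells.

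The number of marker genes per cell fell into a low and a high group in both libraries, as the plot of cells by marker number shows. Without an Alas2 UMI, 6218 and 6546 kept cells had none of the 8 markers and 897 and 676 had a single one. Only 3 and 6 cells had exactly 4 markers, the lowest number that made a member. At the upper end, 49 and 42 cells had a UMI of all 8. On the outer side of the threshold, 18 cells had exactly 3 markers, with a median of 4.5 marker UMIs against 9 in the 9 cells with exactly 4. Fcrls, a microglial Fc receptor-like gene that played no part in choosing cells, was detected in 22.2% of the former, in 55.6% of the latter and in 98.9% of the 91 members with all 8 markers. Aif1, also outside the gate, was detected in 44.4% of cells with 3 markers and in 77.8% of cells with 4. Ctss did not separate them, at 22.2% in both, and Ly86 went the other way, at 38.9% and 22.2%. Neuron-list genes took a median of 0.909% of the UMIs in cells with 3 markers and 0.261% in cells with 4, against 0.0498% in members with all 8.

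**Figure D1:**
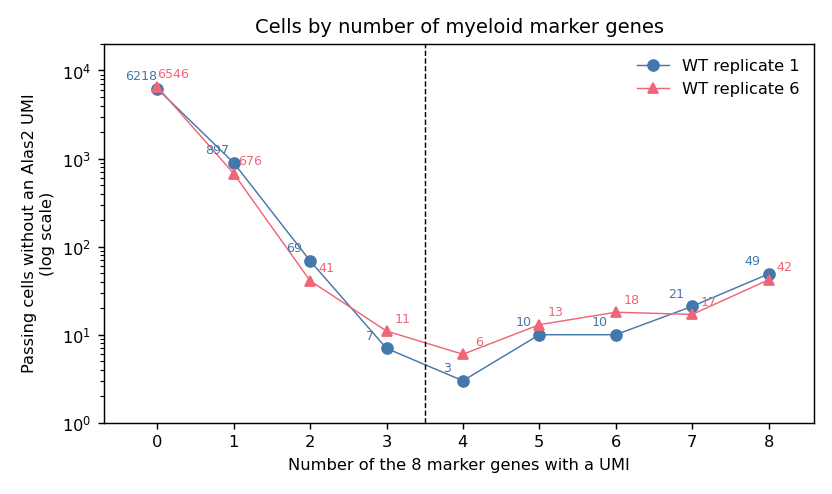
Kept cells without an Alas2 UMI (y axis, log scale, with the number of cells printed at each point) by how many of the 8 marker genes had a UMI (x axis), for WT replicate 1 (circles) and WT replicate 6 (triangles). The dashed line is the threshold for a member, and the counts are lowest beside it, at 3 and 6 cells with exactly 4 markers.

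The genes that chose the cells are given as a description and were not tested. C1qa, C1qb and C1qc encode the chains of C1q, which opens the classical complement cascade. C1qa (Ensembl identifier ENSMUSG00000036887) stood at 2519 and 2288 CPM (UMIs per 1000000 UMIs of the summed cells) in the members of replicates 1 and 6, and at 1.74 and 4.46 CPM in the other cells. C1qb (ENSMUSG00000036905) had 2561 and 2859 CPM in members, and C1qc (ENSMUSG00000036896) had 1951 and 1986 CPM. Both C1qb and C1qc stayed under 5 CPM in the other cells of either library. Members held 91.1%, 91.5% and 92.1% of all UMIs of these genes in kept cells. Tyrobp (ENSMUSG00000030579) and Fcer1g (ENSMUSG00000058715), adaptor proteins that carry the signals of many myeloid receptors, reached 1866 and 1669.8 CPM and 1446 and 1642 CPM. For these adaptors the members held 88.9% and 88.5% of the UMIs.

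The receptor genes of the gate were less complete. Csf1r (ENSMUSG00000024621), the receptor for colony-stimulating factor 1 and interleukin 34, stood at 702 and 691 CPM and was detected in 81.7% and 71.9% of members. Cx3cr1 (ENSMUSG00000052336), the fractalkine receptor, stood at 674 and 669 CPM and was detected in 78.5% and 69.8% of members. P2ry12 (ENSMUSG00000036353), which senses ADP, had 401 and 368 CPM and a UMI in 68.8% and 53.1% of members. Of all kept-cell UMIs of P2ry12 only 37.2% lay in members, against 59.9% for Cx3cr1 and 80.5% for Csf1r. P2ry12 had a UMI in 5.59% and 4.08% of the other cells.

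To find which other genes set these cells apart, UMIs were summed per library over members and over all other kept cells, and edgeR tested the difference between these sums with a quasi-likelihood fit. Of 18075 genes tested outside the gate, 37.5% had an adjusted p under 0.05, with 3397 (18.8%) higher and 3376 (18.7%) lower in members. The median log2 difference over all tested genes was -0.22 with TMM scaling and -0.37 without it, the level against which values below should be read. Log2 differences are members minus other cells and carry the standard error of the fit. Since both sums of a library come from the same embryo, p-values measure the spread between these sums, with 2 libraries behind each. Values given without replicate 1 or without replicate 6 leave out the member sum of that library and keep both sums of other cells, so that a single member sum was tested, with the spread taken from the other-cell sums and assumed to hold for it. The cells were chosen on genes of the same profiles, so that genes that accompany the gate had to differ. A gene scarce in all sums did not enter the test, so counts within a list cover its tested genes only, and a list whose genes are scarce in other cells enters mostly through its level in members.

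The 14 tested microglia genes were all called higher in members, with a median log2 difference of 6.32. Fcrls stood at 878 and 803 CPM in members and 0.793 and 1.61 CPM in the other cells (log2 difference 9.60 ± 0.36, edgeR adjusted p = 5.85e-08). Siglech, a sialic acid-binding lectin, had 212 and 184 CPM against 0.0933 and 0.292 CPM (10.14 ± 0.26, edgeR adjusted p = 7.37e-09). For both genes the lowest member value lay above the highest value of the other cells. Trem2, the lipid-sensing receptor that signals through Tyrobp, reached 445 and 419 CPM against 0.358 and 0.860 CPM (9.62 ± 0.34, edgeR adjusted p = 3.98e-08). Tmem119, a surface protein commonly used to tell microglia from other macrophages in the adult brain, was present at 48.8 and 66.4 CPM against 0.762 and 0.665 CPM (6.47 ± 0.30, edgeR adjusted p = 2.36e-07) and was detected in 46 of 189 members. Sall1, a transcription factor of microglial identity that neural progenitors also express, stood at 66.9 and 88.5 CPM against 12.98 and 12.36 CPM (2.76 ± 0.18, edgeR adjusted p = 2.2e-06).

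All 13 genes of the border-associated macrophage list were called higher as well, at a median log2 difference of 8.95. Pf4, a platelet and macrophage chemokine, had 3810.4 and 3192 CPM in members and 5.38 and 4.66 CPM in the other cells (9.60 ± 0.28, edgeR adjusted p = 1.37e-08). It was detected in 75 of 189 members. Mrc1, the mannose receptor, had 1980.1 and 1635 CPM against 3.95 and 4.14 CPM (8.95 ± 0.25, edgeR adjusted p = 1.16e-08). F13a1, the A chain of coagulation factor XIII, had 2338 and 1896 CPM against 16.2 and 13.8 CPM (7.29 ± 0.25, edgeR adjusted p = 3.22e-08). Cd163, the scavenger receptor for haemoglobin complexes, had 97 and 84 UMIs in members and 58 and 4 UMIs in the far larger number of other cells. Summed over the 13 genes, members reached 11029.9 and 9291 CPM against 42.8 and 35.8 CPM in the other cells.

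Complement and phagocytosis genes were described next. All 6 complement genes tested outside the gate were called higher. The anaphylatoxin receptors C3ar1 and C5ar1 stood at 109 and 111 CPM and 48.8 and 40.3 CPM in members, with log2 differences of 8.40 ± 0.21 (edgeR adjusted p = 5.96e-09) for C3ar1 and 9.91 ± 0.42 (edgeR adjusted p = 1.47e-07) for C5ar1. C3 itself was too scarce to test, with 3 and 1 UMIs in members. Of 13 tested phagocytosis genes, 12 were called higher and Megf10 was lower. Mertk, a receptor for dying cells, had 372 and 275 CPM against 3.16 and 2.60 CPM (6.96 ± 0.20, edgeR adjusted p = 1.2e-08), and its bridging ligand Gas6 had 322 and 268 CPM against 4.65 and 4.40 CPM (6.18 ± 0.15, edgeR adjusted p = 5.92e-09). The calls of the engulfment receptors Axl and Megf10 were lost without replicate 6. Axl, with 6 and 15 UMIs in members and 369 and 334 in the other cells, had a log2 difference of 1.35 (edgeR adjusted p = 0.0377), which became 0.40 (adjusted p = 0.661) without replicate 6 and 1.93 (adjusted p = 0.00109) without replicate 1. Megf10 had 8 and 1 UMIs in members and 1137 and 1102 in the other cells, and its value of -1.56 (edgeR adjusted p = 0.0216) became -0.85 (adjusted p = 0.157) and -3.64 (adjusted p = 0.000254) in the same order.

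Every one of the 20 lysosome and protease genes was called higher, and was so in all the alternative fits. Ctsb and Ctss, cathepsin proteases, stood at 1729 and 1389 CPM and 649 and 725 CPM in members. Against other cells Ctsb differed by 5.13 ± 0.21 (edgeR adjusted p = 1.25e-07), while Ctss, which is largely restricted to antigen-presenting cells, differed by 9.24 ± 0.30 (edgeR adjusted p = 2.67e-08). Members held 87.7% of all Ctss UMIs. Lyz2, the macrophage lysozyme, differed between libraries, at 731 and 223 CPM in members and 0.498 and 6.02 CPM in the other cells. Its log2 difference of 7.34 ± 0.99 (edgeR adjusted p = 0.000309) was 6.23 (adjusted p = 0.000207) without replicate 1 and 7.93 (adjusted p = 8.38e-06) without replicate 6.

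Receptors followed the same direction. All 7 tested purinergic genes were called higher: P2ry6, which responds to UDP and triggers uptake, had 103 and 96.3 CPM against 0.311 and 0.341 CPM (8.40 ± 0.21, edgeR adjusted p = 6.27e-09). P2rx7, an ATP-gated channel, had 198 and 122 CPM against 2.47 and 1.74 CPM (6.41 ± 0.24, edgeR adjusted p = 6.55e-08), and the lysophosphatidylserine receptor Gpr34 had 232 and 219 CPM against 3.48 and 2.97 CPM (6.28 ± 0.14, edgeR adjusted p = 5.46e-09). All 12 growth factor and cytokine receptors outside the gate were called higher too. Tgfbr1 and Tgfbr2 encode the receptor pair for transforming growth factor beta. Tgfbr1 stood at 428 and 491 CPM against 121 and 122 CPM (2.07 ± 0.16, edgeR adjusted p = 7.32e-06), and Tgfbr2 at 159.9 and 163 CPM against 10.5 and 9.61 CPM (4.15 ± 0.12, edgeR adjusted p = 1.45e-08). The interleukin 10 receptor chain Il10ra had 69.2 and 66.4 CPM against 0.0933 and 0.0487 CPM (9.97 ± 0.34, edgeR adjusted p = 3.6e-08).

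Among 20 myeloid transcription factors, 19 were called higher, and Sall3, a relative of Sall1, had a log2 difference of 0.08 (edgeR adjusted p = 0.839) that turned to -0.16 (adjusted p = 0.768) without replicate 6. Spi1 was detected in 135 of 189 members and stood at 217 and 258 CPM against 0.435 and 0.617 CPM (8.96 ± 0.20, edgeR adjusted p = 5.47e-09). Runx1, a factor of early blood and microglial development, had 322 and 325 CPM against 1.51 and 1.74 CPM (7.79 ± 0.17, edgeR adjusted p = 5.18e-09). Mef2c, which excitatory neurons also express, had 934 and 756 CPM against 507 and 490.1 CPM and the smallest difference of the called factors (0.91 ± 0.17, edgeR adjusted p = 0.00253).

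**Figure D2:**
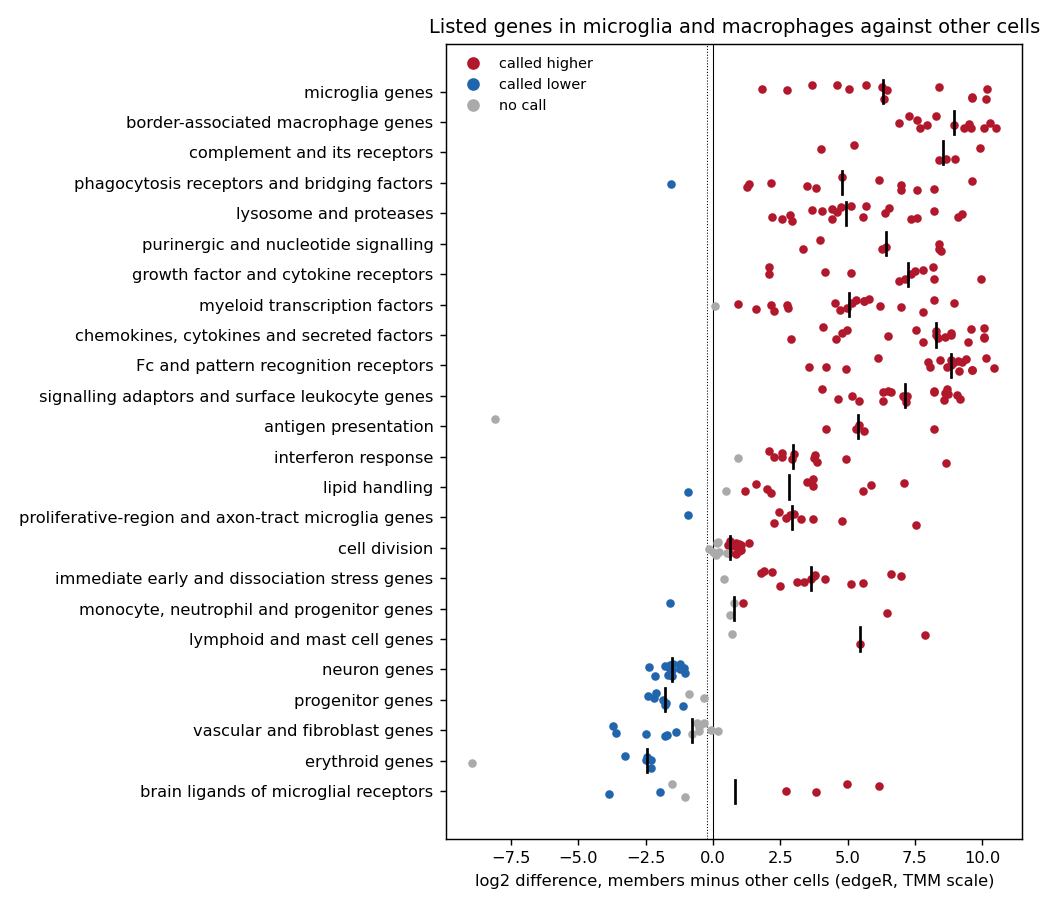
Log2 differences (x axis, members minus other cells, edgeR with TMM scaling) of the tested genes in each of 24 lists (y axis), with red points called higher, blue points called lower and grey points without a call at an adjusted p of 0.05. Short bars are list medians, the dotted line is the median of all tested genes at -0.22, and the 2 grey points at the far left are genes without a UMI in members, whose fitted value depends on the prior count. The 13 macrophage genes lie between 6.92 and 10.52 and the 15 neuron genes between -2.36 and -1.05.

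The immune surface genes were uniformly higher. All 19 tested Fc and pattern recognition receptors and all 20 signalling adaptors and leukocyte surface genes were called. Fcgr3, a low-affinity immunoglobulin receptor, had 379.9 and 396 CPM against 0.700 and 0.714 CPM (9.24 ± 0.18, edgeR adjusted p = 5.13e-09). Tlr4, the endotoxin receptor, had 59.0 and 57.3 CPM against 0.917 and 0.909 CPM (6.14 ± 0.25, edgeR adjusted p = 1.09e-07). Aif1, which encodes the microglial stain Iba1, had 386 and 549 CPM against 0.731 and 1.09 CPM (9.16 ± 0.30, edgeR adjusted p = 2.64e-08), and the pan-leukocyte gene Ptprc (Cd45) had 177 and 230.4 CPM against 0.575 and 0.957 CPM (8.20 ± 0.24, edgeR adjusted p = 1.4e-08). B2m, the light chain of class I molecules, had 671 and 776 CPM against 15.5 and 17.1 CPM (5.62 ± 0.19, edgeR adjusted p = 3.79e-08), and 5 of 6 tested genes of the list were called higher, with Ciita at 0 in members. The class II chain genes H2-Aa, H2-Ab1 and H2-Eb1 were too scarce to test, with 0, 4 and 1 UMIs in all 189 members. Cd74, the class II invariant chain, had 30 and 34 UMIs in members and 8 and 10 in the other cells (8.20 ± 0.40, edgeR adjusted p = 3.2e-07).

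Of 12 tested interferon response genes, 11 were called higher at a median log2 difference of 2.99. Bst2 (tetherin) had 315 and 329 CPM against 11.9 and 11.3 CPM (4.95 ± 0.14, edgeR adjusted p = 1.28e-08). Ifi27l2a differed between libraries, at 247 and 124 CPM in members, and its log2 difference of 8.64 ± 0.32 (edgeR adjusted p = 5.31e-08) was 8.02 (adjusted p = 4.64e-09) without replicate 1. Ifit2, with 6 and 16 UMIs in members and 496 and 476 in the other cells, had a log2 difference of 0.94 (edgeR adjusted p = 0.112), which was 1.56 (adjusted p = 0.00198) without replicate 1 and -0.06 (adjusted p = 0.937) without replicate 6. Over the whole list the count called was 12 without replicate 1 and 8 without replicate 6, and it was 6 when members with 6 or more neuron genes were left out. Lipid genes gave 10 of 12 higher. Apoe, the main apolipoprotein of the brain, had 8274 and 6722 CPM in members against 144 and 138 CPM in the other cells (5.88 ± 0.26, edgeR adjusted p = 1.67e-07) and a UMI in 185 of 189 members. Fabp5, a fatty acid-binding protein that progenitors also express, was lower in members, at 408 and 403 CPM against 849.9 and 870.1 CPM (-0.93 ± 0.17, edgeR adjusted p = 0.0017). Pltp, a phospholipid transfer protein, had 25 and 10 UMIs in members and 1210 and 891 in the other cells, with a log2 difference of 0.50 (edgeR adjusted p = 0.286), which was -0.23 (adjusted p = 0.725) without replicate 1 and 0.89 (adjusted p = 0.046) without replicate 6.

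Outside the lists, the 10 called genes with the largest rise were Cd300c2, Fcna, Cd86, Cryba4, Lrrc25, Ltc4s, Ms4a6b, Gm40645, Cd84 and Gm2629, with log2 differences from 10.09 to 9.36. Cd86, the T cell costimulatory ligand, had 442 and 427 CPM against 0.544 and 0.665 CPM (9.63 ± 0.20, edgeR adjusted p = 5.13e-09). Ltc4s, the enzyme that makes leukotriene C4, had 328 and 371 CPM against 0.466 and 0.519 CPM (9.61 ± 0.20, edgeR adjusted p = 5.13e-09). Cryba4, a crystallin gene, had 143 and 109 CPM against 0.171 and 0.178 CPM (9.62 ± 0.22, edgeR adjusted p = 5.47e-09). For Cd84, a receptor of the SLAM family, the difference of 9.38 ± 0.38 (edgeR adjusted p = 1.09e-07) was 8.67 (adjusted p = 4.09e-08) without replicate 1. Members thus held most of the kept-cell UMIs of each of these genes, from 88.9% for Gm2629 to 93.0% for Cd300c2. The 10 called genes with the lowest fitted differences were Id1, Nudt11, Jph1, Sfta3-ps, Sox5os4, Mfsd2a, Sema3e, Cyyr1, Cyp39a1 and Mgp, and none of them had a UMI in any member, so that their fitted values and order depend on the prior count and on their level in other cells. Against a floor of 3 UMIs per library, Id1, an inhibitor of bHLH factors, was at least 5.80-fold lower in members, where other cells had 19.7 and 24.8 CPM. Mfsd2a, a lipid transporter of brain endothelium, was at least 2.53-fold lower. For Mgp, an extracellular matrix gene, the bound was 1.57-fold, and its call was lost without replicate 1 or without replicate 6, at adjusted p = 0.101 and 0.0659.

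The members were not of 1 kind. Each was placed by the share of its UMIs that came from the 13 border-associated macrophage genes, and the cells separated into a group at or near 0 and a group between 0.683% and 4.32%. No cell lay between 0.306% and 0.683%, and a line at 0.5%, chosen after the values were seen, divided 124 macrophage-gene-low members from 65 macrophage-gene-high members. Macrophage-gene-high cells were 37 of 93 members in replicate 1 (39.8%, 95% Wilson interval 30.4 to 49.9%) and 28 of 96 in replicate 6 (29.2%, 21.0 to 38.9%), intervals that overlap. Their macrophage-list share had a median of 2.58% in replicate 1 and 2.66% in replicate 6, against 0.0139% and 0.0177% in the others. Macrophage-gene-high cells expressed a median of 10 of the 13 genes, whereas 48 of the macrophage-gene-low cells expressed none. They were also deeper, at a median of 10179 and 10665 UMIs against 6393 and 5069.5. At least 6 of 15 neuron genes were present in 6 and 5 macrophage-gene-high and in 16 and 18 macrophage-gene-low cells. Values that compare these kinds with each other are descriptions in both libraries without a test, since the kinds were cut from the same cells. Fits of 1 kind against other cells rest on a line set after the values were seen, so their p-values are descriptive only.

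**Figure D3:**
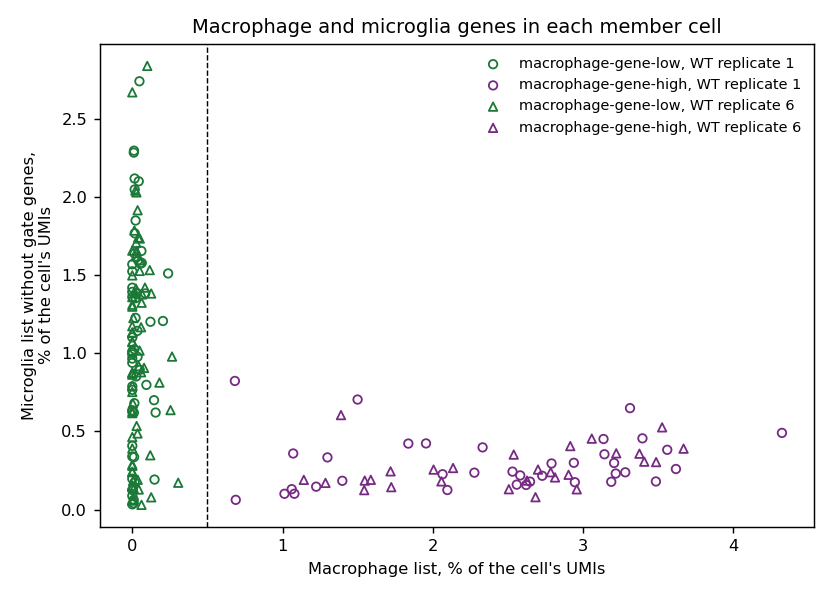
Each member cell by the percentage of its UMIs from the 13 border-associated macrophage genes (x axis) and from the microglia list without the genes of the gate (y axis). Circles are WT replicate 1 and triangles WT replicate 6, green points are macrophage-gene-low and purple points macrophage-gene-high cells, and the dashed line is the 0.5% cut. Green points reach up to 2.84% on the microglia axis with at most 0.306% on the macrophage axis, and purple points reach 0.823% on the microglia axis. Some green points lie near 0 on both axes, down to 0.0306% on the microglia axis in a cell with 11 of 15 neuron genes.

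Among the genes of the gate, C1q and Csf1r levels were similar in both kinds, while P2ry12 and Cx3cr1 were higher in macrophage-gene-low and Fcer1g in macrophage-gene-high cells. C1qa had 2353 and 2386 CPM in macrophage-gene-low cells of replicates 1 and 6 and 2714 and 2119 CPM in macrophage-gene-high cells. Csf1r had 742 and 686 CPM and 654 and 699 CPM. P2ry12 stood at 610.3 and 511 CPM in macrophage-gene-low cells and 156 and 124 CPM in macrophage-gene-high cells. Fcer1g stood at 1095 and 1214 CPM and 1859 and 2377 CPM. Across genes with at least 20 member UMIs, 506 of 9054 (5.59%) were over 2-fold higher in macrophage-gene-high cells of both libraries and 768 (8.48%) were over 2-fold lower. Of the 17 microglia genes, 3 of them genes of the gate, 14 were over 2-fold lower in macrophage-gene-high cells of both libraries. The median share of UMIs from that list, leaving out the gate genes, was 1.02% and 0.998% in macrophage-gene-low cells and 0.239% and 0.242% in macrophage-gene-high cells.

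Individual microglia genes differed widely between the kinds, as the plot of levels shows. Siglech had 379.6 and 291 CPM in macrophage-gene-low cells and 14.8 and 0 CPM in macrophage-gene-high cells. Sall1 had 115 and 136 CPM and 9.88 and 7.06 CPM, the latter from 4 and 2 UMIs, and a fit with only macrophage-gene-high members gave no call against other cells (log2 difference -0.453, edgeR adjusted p = 0.535). Tgfbr1 had 721 and 752 CPM in macrophage-gene-low cells but 81.5 and 42.4 CPM in macrophage-gene-high cells. In the same fit Tgfbr1 was lower than in other cells, with a log2 difference of -0.82 (edgeR adjusted p = 0.0101). The B cell linker Blnk was not detected in macrophage-gene-high cells. In macrophage-gene-low cells it stood at 115 and 142 CPM, at least 15.6-fold and 13.4-fold higher against a floor of 3 UMIs per library. Fcrls differed less, at 1053 and 866 CPM and 672 and 696 CPM.

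The macrophage genes that made the division ran the other way by construction. Mrc1 had 88.1 and 63.9 CPM in macrophage-gene-low and 4208 and 4327 CPM in macrophage-gene-high cells, and Pf4 had 8.39 and 59.8 CPM and 8287 and 8562 CPM. Cd163 was not detected in macrophage-gene-low cells and stood at 239.5 and 297 CPM in the others. Beyond the list, Gas6 had 136 and 94.8 CPM in macrophage-gene-low and 541 and 565 CPM in macrophage-gene-high cells. The growth factor Igf1 had 73.4 and 61.8 CPM and 338 and 247 CPM, P2rx7 had 77.6 and 63.9 CPM and 341 and 223 CPM, and the galectin Lgals1 had 52.4 and 210.2 CPM and 1479 and 1565 CPM. The transcription factor Maf stood at 491 and 431 CPM and 1566 and 1547 CPM, while Spi1 differed less, at 189 and 243 CPM and 249 and 283 CPM. Of 20 lysosome and protease genes, 7 were over 2-fold lower and 2 over 2-fold higher in macrophage-gene-high cells of both libraries. Over all compared genes these shares were 8.48% and 5.59%. Ctss had 935 and 966 CPM in macrophage-gene-low and 311 and 311 CPM in macrophage-gene-high cells, whereas the cathepsin Ctsc had 147 and 150.4 CPM and 301 and 364 CPM.

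**Figure D4:**
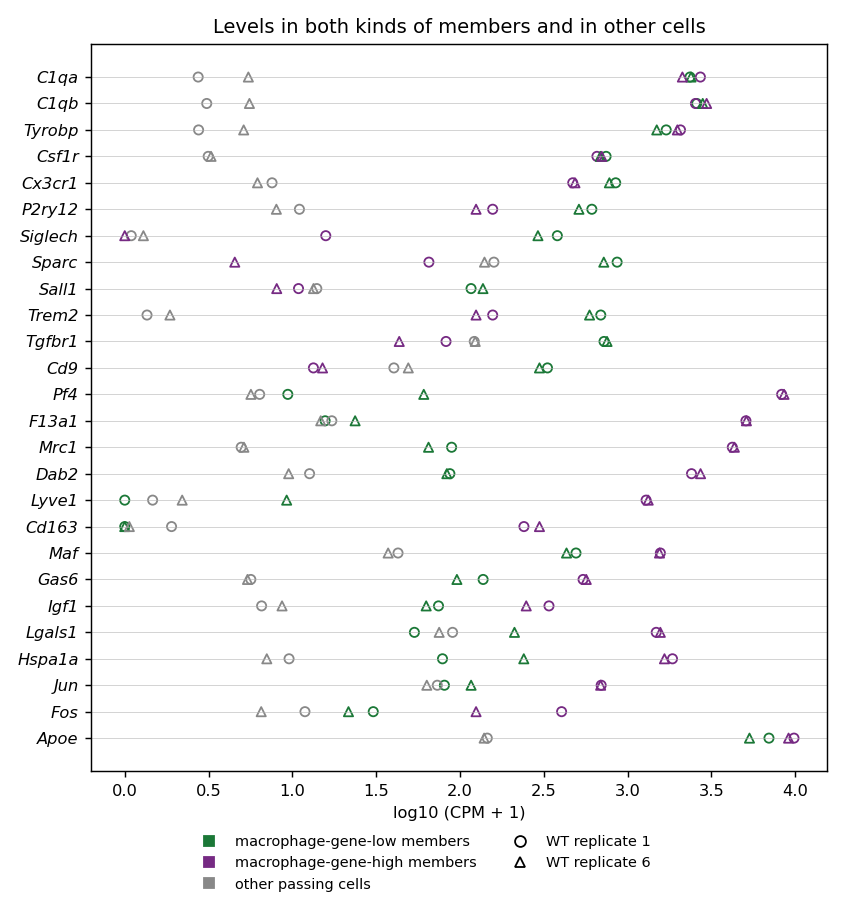
Level of selected genes (x axis, log10 of CPM + 1) in macrophage-gene-low members (green), macrophage-gene-high members (purple) and other kept cells (grey) of WT replicate 1 (circles) and WT replicate 6 (triangles). The C1q genes and Csf1r coincide in both kinds, Siglech, Sall1 and Tgfbr1 are higher in green, and Pf4, Mrc1 and Cd163, which made the division, are higher in purple.

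Outside the lists, the largest differences between kinds were found by ranking genes on the smaller of their 2 library differences, a ranking made after the values were seen. Toward macrophage-gene-high cells these were Fcna, Gm49144, Mgl2, Ednrb, Emb, Iqgap2, Pmp22, Arhgef3, Ms4a6c and Vav3. Fcna, a ficolin of the lectin complement pathway, had 142 and 66 UMIs in macrophage-gene-high and 1 and 2 in macrophage-gene-low cells. Mgl2, a galactose-type lectin, had 36 and 31 against 0 and 1 UMIs, and the endothelin receptor gene Ednrb had 88 and 63 against 3 and 5. Toward macrophage-gene-low cells the largest were Arhgap24, Plxdc2, Lair1, Havcr2, Bcl2a1b, Rtn4rl1, Serpine2, Slit3, Lhfpl2 and Npnt. Slit3 was detected in only 3.57% and 4.41% of macrophage-gene-low cells, at 77.6 and 47.4 CPM against 143 and 144 CPM in other cells. Plxdc2, a plexin domain receptor, had 534 and 507 UMIs in macrophage-gene-low and 3 and 5 in macrophage-gene-high cells. Lair1, a collagen receptor, had 81 and 81 against 1 and 0, and Havcr2 (Tim-3) had 23 and 34 against 0 and 0.

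Transcripts of division genes were found in some members, and the part of doublets or free RNA in them was not tested. Because detection depends on depth, cells with at least 2000 UMIs were thinned to 2000, which left out 11 and 16 members. A UMI of the proliferation genes Mki67 or Top2a was then present in 25.6% of members in replicate 1 (95% Wilson interval 17.4 to 36.0%) and in 15% in replicate 6 (8.79 to 24.4%). The share was 12.4% and 11.6% in the other cells. In excitatory neurons, defined by excitatory neuron transcripts without a UMI of Pax6 or Eomes and not expected to divide, it was 3.39% and 3.49%, and this was taken as background. Members therefore lay above that background in both libraries, whereas the interval of replicate 6 included the level of the other cells. Unthinned, the shares were 39.8% and 26.04% in members, 19.9% and 17.8% in other cells and 11.3% and 8.58% in excitatory neurons, at median depths of 8331 and 7022.5, 6913 and 6660, and 9168 and 8225 UMIs. The mean unthinned share in members, 32.9%, was 28.2% with likely doublets removed, 33.6% with 6 or more markers and 36.4% with stricter quality filters.

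**Figure D5:**
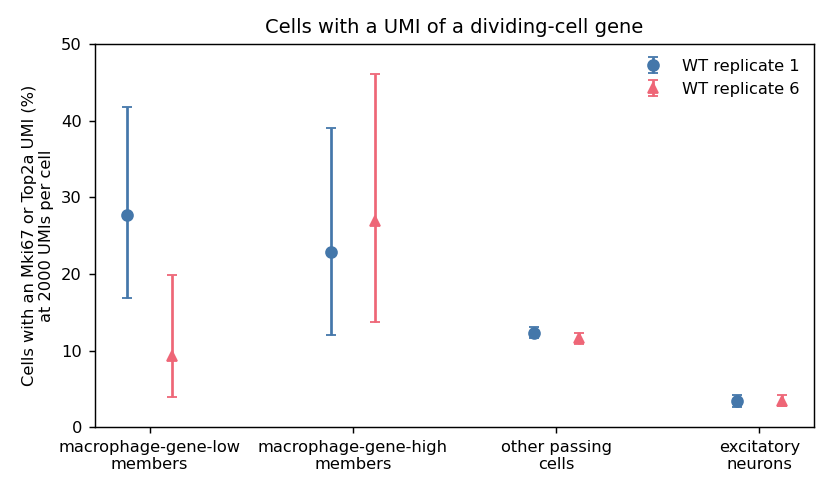
Percentage of cells with an Mki67 or Top2a UMI after thinning to 2000 UMIs per cell (y axis) in macrophage-gene-low members, macrophage-gene-high members, other kept cells and excitatory neurons (x axis), with 95% Wilson intervals, for WT replicate 1 (circles) and WT replicate 6 (triangles). The points of both kinds of members lie above the excitatory neurons at 3.39% and 3.49%, and the intervals of the 2 kinds overlap in both libraries.

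The share of cells with an Mki67 or Top2a UMI was compared between the kinds without a test. The intervals of the kinds overlapped in both libraries, and their order differed between the libraries. Macrophage-gene-low cells had a share of 27.7% (16.9 to 41.8%) in replicate 1 and 9.26% (4.02 to 19.9%) in replicate 6, and macrophage-gene-high cells 22.9% (12.1 to 39.0%) and 26.9% (13.7 to 46.1%). With at least 4 of 19 division genes as the criterion, 20.7% and 16.3% of thinned members passed, against 9.36% and 9.51% of other cells and 1.04% and 1.14% of excitatory neurons. In the sums, 12 of the 19 division genes were called higher in members than in other cells, at a median log2 difference of 0.64. With likely doublets removed 9 were called higher and 1 lower. Filters of 3000 to 30000 UMIs and under 5% mitochondrial UMIs also gave 9 higher and 1 lower. The higher count was 10 without TMM scaling and 12 with 6 or more markers. Mcm3, of the replicative helicase, had 57.8 and 52.1 CPM against 23.6 and 25.2 CPM (1.32 ± 0.16, edgeR adjusted p = 0.00013), and Birc5 (survivin) had 91.9 and 80.7 CPM against 46.0 and 46.3 CPM (1.06 ± 0.13, edgeR adjusted p = 0.000151). Mki67 had 180.3 and 105 CPM against 95.7 and 88.6 CPM (0.79 ± 0.19, edgeR adjusted p = 0.0104), with 0.32 (adjusted p = 0.149) without replicate 1. Top2a had 197 and 126 CPM against 179 and 152 CPM and a log2 difference of 0.12 (edgeR adjusted p = 0.656), which was -0.27 (adjusted p = 0.179) without replicate 1 and 0.37 (adjusted p = 0.0397) without replicate 6. The count of called division genes was 7 without replicate 1. It was 3 (median log2 difference 0.26) when only macrophage-gene-low members entered and 11 (0.87) when only macrophage-gene-high members entered, a difference that was not tested. Over all genes, the fit with macrophage-gene-low members called 2112 of 17889 higher (median log2 difference -0.26). The fit with macrophage-gene-high members called 2869 of 17842 higher (-0.53).

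Secreted factors came in part from very few cells. All 19 tested chemokines, cytokines and secreted factors were called higher in members. Spp1 (osteopontin) had 240.4 and 233 CPM in members against 0.358 and 2.47 CPM (7.55 ± 0.58, edgeR adjusted p = 8.34e-06). Of its 391 member UMIs, 343 (87.7%) lay in 4 cells, which held 120, 102, 69 and 52, and only 15 members had any. Cxcl10, an interferon-induced chemokine, had 5 and 71 UMIs, of which 49 lay in a single cell, and its log2 difference of 6.48 ± 0.86 (edgeR adjusted p = 0.000279) was 7.41 (adjusted p = 1.86e-08) without replicate 1 and 3.38 (adjusted p = 0.00897) without replicate 6. Ccl12, a monocyte chemoattractant, had 106 of its 312 UMIs in 1 cell and a difference of 10.05 ± 0.56 (edgeR adjusted p = 8.89e-07), or 9.10 (adjusted p = 2.65e-08) without replicate 6. Others were spread more evenly. Ccl3 was detected in 43 members (8.63 ± 0.22, edgeR adjusted p = 6.86e-09), Ccl24 in 52 (10.08 ± 0.30, edgeR adjusted p = 1.45e-08), Igf1 in 73 (4.78 ± 0.22, edgeR adjusted p = 2.49e-07) and Tgfb1 in 98 (4.99 ± 0.20, edgeR adjusted p = 9.65e-08). Il1b, Il6 and Osm were too scarce to test, with 10, 1 and 3 UMIs in all members.

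Genes of the proliferative-region and axon-tract microglia state, described in the postnatal brain, were mostly higher, with 9 of 10 tested genes called so and Fabp5 lower. Lgals1 had 708 and 709 CPM against 89.2 and 74.1 CPM (3.27 ± 0.17, edgeR adjusted p = 5.77e-07). Most of its level lay in macrophage-gene-high cells, at 1479 and 1565 CPM against 52.4 and 210 CPM in macrophage-gene-low cells. Of 9 list genes compared between the kinds, 3 were over 2-fold higher and 4 over 2-fold lower in macrophage-gene-high cells of both libraries. Over all compared genes these shares were 5.59% and 8.48%. Gpnmb, Cst7 and Itgax were too scarce to test, at 3, 5 and 2 UMIs in all members, and Spp1 rested on the few cells above.

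Immediate early and dissociation stress genes were high in members, and 14 of the 15 were called, with Btg2 at a log2 difference of 0.42 (edgeR adjusted p = 0.0946). Hspa1a, a heat shock protein gene, had 891 and 761 CPM against 8.55 and 6.04 CPM (6.98 ± 0.24, edgeR adjusted p = 3.85e-08). Jun had 362 and 327 CPM against 72.2 and 62.4 CPM (2.51 ± 0.14, edgeR adjusted p = 1.11e-06). Fos was uneven between libraries, at 201 and 58.6 CPM against 10.9 and 5.52 CPM (4.16 ± 0.48, edgeR adjusted p = 0.00011), with 2.96 (adjusted p = 0.000927) without replicate 1. These transcripts went with the macrophage-gene-high cells, in which 10 of 15 listed genes were over 2-fold higher in both libraries and none over 2-fold lower, beside 5.59% of all genes over 2-fold higher. Hspa1a had 77.6 and 239 CPM in macrophage-gene-low and 1849.6 and 1657 CPM in macrophage-gene-high cells and was detected in 37 of 65 macrophage-gene-high but 17 of 124 macrophage-gene-low cells. Jun had 79.7 and 115 CPM and 694 and 689 CPM. With only macrophage-gene-low members in the fit, 9 of the 15 genes were called higher. The part of tissue dissociation in these values was not tested.

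Markers of other cell types in the members were measured over whole lists. The 15 neuron genes were all called lower in members, at a median log2 difference of -1.52, yet none was absent. Their summed level was 3059.7 and 3641 CPM in members against 10302 and 10363 CPM in the other cells. The list median was -2.41 with likely doublets removed and -3.81 without members that held 6 or more neuron genes, with all 15 called lower in both fits. The latter fit left out cells on these same genes, which lowers the list by construction, so it is no test of the list. Neurod6, of excitatory neurons, had 68.0 and 79.4 CPM against 433 and 406 CPM (-2.36 ± 0.17, edgeR adjusted p = 5.62e-06). Nrxn3, a presynaptic adhesion gene, had 1128 and 1447 CPM against 3458 and 3188 CPM (-1.21 ± 0.22, edgeR adjusted p = 0.00175), and 59.9% of its member UMIs lay in 4 cells. In the median member 0.0811% and 0.0755% of UMIs came from the neuron list, against 0.956% and 0.982% in other cells. At least 6 of the 15 neuron genes were present in 22 and 23 members (23.7% and 24.0%), which had medians of 12141 and 9612 UMIs against 7801 and 6644 in the rest. Of 27 members that the Scrublet method marked as likely doublets, 16 were among these. The part of doublets or free RNA in these neuron transcripts was not tested. Without members that held 6 or more neuron genes, 3323 genes were called higher and 4258 lower.

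Erythroid genes were lower in members than in other cells. The rule favoured this direction, since it kept members free of Alas2 UMIs, which 10.6% and 10.3% of other cells held. Hbb-bs, an adult beta-globin, had 1063 and 2045 CPM in members and 6781 and 10288 CPM in the other cells (-2.30 ± 0.36, edgeR adjusted p = 0.000777), with -2.89 (adjusted p = 1.48e-06) without replicate 6, and every member had a UMI of it. Of 6 tested erythroid genes, 5 were lower, and Slc4a1 had no UMI in members. Summed over the list, the level was 1956 and 4107 CPM in members against 14075 and 20612 CPM in other cells. Progenitor genes gave 7 of 9 lower and vascular and fibroblast genes 6 of 13 lower, with none higher in either list. Summed levels were 417 and 345 CPM in members against 1304 and 1453 CPM for progenitor genes, and 119 and 208 CPM against 445 and 425 CPM for vascular and fibroblast genes. Fabp7, of radial glia, had 267 and 209.5 CPM against 869 and 1030.3 CPM (-1.85 ± 0.19, edgeR adjusted p = 6.22e-05). Nes and Hes1 were the exceptions, with log2 differences of -0.35 (edgeR adjusted p = 0.215) and -0.88 (edgeR adjusted p = 0.116). Cldn5, of endothelial tight junctions, had 6.80 and 5.21 CPM against 82.0 and 79.9 CPM (-3.59 ± 0.23, edgeR adjusted p = 2.22e-06). Rgs5, of pericytes, had 8 and 1 UMIs in members and a difference of -3.69 ± 0.34 (edgeR adjusted p = 2.84e-05), which was -5.78 (adjusted p = 1.56e-07) without replicate 1 and -2.99 (adjusted p = 4.68e-07) without replicate 6. The count of lower vascular genes was 10 without replicate 6 and 4 without replicate 1.

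Markers of other leukocytes were scarce. Ccr2 and Ly6c2, which define classical monocytes, Ms4a3, S100a9 and Elane had no UMI in any of the 189 members, and a count of 0 allows up to 1.59% of members with a UMI. Of the 5 tested genes of that list, Plac8 and Cd34 were called higher and Kit lower, and S100a8 and Ngp had 1 UMI each in members. Plac8, found in monocytes and progenitors, had 2 and 26 UMIs in 6 macrophage-gene-low members (6.46 ± 1.10, edgeR adjusted p = 0.00134), with 3.49 (adjusted p = 0.23) without replicate 6 and 7.40 (adjusted p = 2.44e-05) without replicate 1. Cd34, with 11 and 17 UMIs in members and 539 and 563 in other cells, had a difference of 1.11 (edgeR adjusted p = 0.0233) and 0.63 (adjusted p = 0.346) without replicate 6. Kit, with 7 and 2 UMIs in members and 1263 and 1017 in other cells, had -1.58 (edgeR adjusted p = 0.0145), with -1.07 (adjusted p = 0.0733) without replicate 6 and -2.67 (adjusted p = 0.00276) without replicate 1. Among lymphoid and mast cell genes, Cd3e, Cd3g, Ms4a1, Nkg7, Klrb1c, Cpa3 and Mcpt4 had no UMI in members, and Cd79a and Hdc had 1 each. Cd79b, a B cell receptor chain, was the exception, with 33 and 24 UMIs in 48 members and 2 and 18 in other cells (7.87 ± 0.63, edgeR adjusted p = 1.17e-05). Il7r, a cytokine receptor chain of lymphocytes, had 4 and 5 UMIs in members and 2 and 15 in other cells (5.44 ± 1.09, edgeR adjusted p = 0.00346).

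Ligands of microglial receptors were compared last. Of 8 tested ligands, Gas6, Tgfb1, Pros1 and Csf1 were called higher in members and Cd200 and Tgfb2 lower. Over all tested genes, 18.8% were called higher and 18.7% lower. Csf1, a ligand of Csf1r, had 34.0 and 39.0 CPM in members against 6.44 and 6.02 CPM (2.70 ± 0.22, edgeR adjusted p = 1.46e-05), and Cd200, a neuronal ligand that restrains myeloid cells, had 13.6 and 11.7 CPM against 54.4 and 55.0 CPM (-1.95 ± 0.20, edgeR adjusted p = 5.57e-05). Il34, the other ligand of Csf1r, had 3 and 0 UMIs in members and 392 and 333 in other cells (log2 difference -1.51, edgeR adjusted p = 0.16), with an adjusted p of 0.0177 without replicate 1. Tgfb2 had 2 and 0 UMIs in members against 1284 and 1164 in other cells (-3.85 ± 0.57, edgeR adjusted p = 0.000568), with -2.98 (adjusted p = 0.000241) without replicate 6 and no member UMI without replicate 1. Cx3cl1 (fractalkine), the ligand of Cx3cr1, had 1 and 0 UMIs in members and 89 and 86 in other cells, a log2 difference of -1.04 (edgeR adjusted p = 0.541). Csf1 was itself uneven between members, with 60.8 and 61.8 CPM in macrophage-gene-low and 2.47 and 0 CPM in macrophage-gene-high cells.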

How the data were processed

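Dorsal telencephalon of 2 WT embryos was profiled by 10x 3' single-cell RNA-seq. Per the submitters' processing notes the authors used Cell Ranger 7.0.0 and mm10, and deposited UMI counts per gene and called cell; whether intronic reads were counted is not given in the sources used here. The labels give each library its own number, the numbers share their first part, and what that part stands for (such as a litter) is not stated. Cells were filtered and chosen as described in the report. The members, the 24 gene lists (316 genes, 314 of them found by symbol) and the tests were chosen with earlier results of these data known.

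Member and other-cell UMIs were summed per library and compared with edgeR 4.0.16 in R 4.3.3 (TMM, filterByExpr, quasi-likelihood test, Benjamini-Hochberg adjustment, threshold 0.05). The fit held 18084 genes, 9 of which chose the cells and were not tested. Both sums of a library come from the same embryo: their deviations correlated at r = 0.108 over 18084 genes. On simulated counts (17898 genes) the procedure recovered 100% of 4-fold and 76% of 2-fold changes, with 7 false calls among 17698 unchanged genes. The simulation gave every gene the common dispersion of 0.0126 and changed only genes with at least 10 expected UMIs in each member sum. Its rates therefore do not cover genes scarcer in members or with a wider spread. Genes outside the lists were named by the 10 largest rises and falls among called genes with the same sign in both libraries and at least 20 UMIs in each member sum (rises) or other-cell sum (falls). Listed genes were named first by their UMIs in members and then where they went against their list. Wilson intervals and the floor of 3 UMIs cover counting error only. Alternatives were DESeq2 1.42.0, no TMM, no low-count filter, a replicate block, a gate of 6 markers, doublet removal (Scrublet in scanpy 1.11.5, with 0.8% doublets assumed per 1000 cells and 30 principal components), filters of 3000 to 30000 UMIs and under 5% mitochondrial UMIs, other cells without any marker, and the member sum of each library left out, which tests 1 member sum against both other-cell sums. Leaving out members with 6 or more of 15 neuron genes, or either kind of member, was chosen after seeing the data. Some listed genes count in the totals but are not reported here by name.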

Additional observations from a re-analysis of the deposited data

Results flagged for a closer look

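Outside the quality filters, 89 further cells (40 from replicate 1, 49 from replicate 6) had at least 4 of the 8 markers and no Alas2 UMI. They entered no comparison and were singled out because they carry the signal of the gate in cells that the report leaves aside. Of them 72 held under 1500 UMIs, 27 had at least 10% mitochondrial UMIs, 14 met both conditions and 4 held over 60000 UMIs. Outside the filters lay 10834 called cells in all.

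Among cells inside the filters, 9 (2 and 7) had at least 4 markers together with an Alas2 UMI and were kept out of the members for that reason, of which 7 had all 8 markers. Whether they were pairs of cells in 1 droplet was not tested.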

How the results depend on the processing

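The replicate block gave 6679 called genes (3275 higher, 3404 lower) and changed no call among the 101 genes printed with a test. The total of 6773 genes (3397 higher, 3376 lower) became 4044 (2112 higher, 1932 lower) with only macrophage-gene-low members. With the member sum of 1 library left out, the total lay between 5982 and 6426, the higher count between 2903 and 3107 and the lower count between 3079 and 3319. The share of members, 1.16%, was 0.961% with 6 or more markers, 1.11% with likely doublets removed and 1.13% with stricter quality filters. The share of members with 2 or more macrophage genes, 57.7%, was 62.4% with 6 or more markers, 74.4% with stricter filters and 34.5% when defined by the 0.5% cut.

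Some log2 differences changed sign. With only macrophage-gene-high members they were -0.453 for Sall1, -1.85 for Axl, -0.818 for Tgfbr1, -3.53 for Sall3, -0.737 for Ifit2, -11.12 for Cd34 and -2.01 for Csf1; Cd34 had no UMI in these cells, so that its value depends on the prior count. With only macrophage-gene-low members they were -2.32 for Pltp, -0.206 for Top2a and 0.213 for Nes. Without TMM scaling they were -0.0686 for Sall3 and -0.0281 for Top2a, and with 6 or more markers -0.0143 for Sall3. Without members holding 6 or more neuron genes Ifit2 was at -1.30. Without the member sum of replicate 1 and without that of replicate 6, in this order, values were 0.257 and -0.156 for Sall3, 1.56 and -0.0647 for Ifit2, -0.229 and 0.886 for Pltp, -0.269 and 0.368 for Top2a, 1.71 and -7.20 for S100a8, -7.05 and 1.65 for Ngp, and 1.78 and -7.13 for Hdc. The cause of these changes was not tested. Sall1, Axl, Tgfbr1, Cd34 and Csf1 were called higher with all members, and the other genes named here had no call.

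With 189 cells and 2 libraries, genes scarce in all sums were not tested, and the division shares of the kinds rest on 26 to 54 cells each.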
